A study of Mus musculus with 8 samples.

Results

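Brown adipose tissue burns fuel to make heat, and a small set of microRNAs (miRNAs) has been reported to build or tune that capacity. The set described here holds 9 of the 566 mouse miRNAs on the array: mmu-miR-455, mmu-miR-22 and its other arm mmu-miR-22*, mmu-miR-203, mmu-miR-328, mmu-miR-32, mmu-miR-196a, and mmu-miR-140 with its other arm mmu-miR-140*, written without the species prefix below. Members were matched by exact name to the array design. The tissue came from male C57Bl6N mice aged 8 weeks, of which 3 (mice 1 to 3) had spent 24 h at 8 °C and 3 (mice 4 to 6) had stayed at 21 °C, called room temperature below. Trizol-extracted total RNA received the dye Cy3 and was read on 8 Agilent 1-colour miRNA arrays. Mouse 1 and mouse 4 each had 2 arrays, which were averaged, so n = 3 mice per group throughout. No agent or genetic change is given in the labels for either group. Whole tissue was used, so fewer cells of a type and less RNA per cell cannot be told apart.

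A miRNA is cut from a hairpin precursor, and either arm of the hairpin can give a mature strand of about the same length. The mature strand guides a silencing complex to messenger RNAs that pair with its seed, the bases at positions 2 to 8. In brown fat, cold reaches the cells through noradrenaline from sympathetic nerves, and miRNAs act on that programme by lowering its repressors or its activators.

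The mature sequences define what each probe set reads. They are given because miRNAs with one seed share candidate targets. RefSeq (GRCm38.p6) held sequences for 7 of the 9 members. The array name miR-455 gives no arm, so both are shown. Capitals mark the seed, and each sequence runs 5′ to 3′.
miR-455-5p: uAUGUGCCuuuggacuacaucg
miR-455-3p: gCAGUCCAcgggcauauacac
miR-22-3p (array name miR-22): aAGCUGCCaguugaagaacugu
miR-22-5p (array name miR-22*): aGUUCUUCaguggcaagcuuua
miR-203-3p (array name miR-203): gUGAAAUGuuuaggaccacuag
miR-140-3p (array name miR-140*): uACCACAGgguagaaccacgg
miR-32-5p (array name miR-32): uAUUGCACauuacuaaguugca
miR-196a-5p (array name miR-196a): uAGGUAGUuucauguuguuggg

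No 2 of these 8 sequences shared a seed. The arms of miR-22 carry different seeds from one hairpin. In the RefSeq table the seed of miR-32 also occurred in 5 other mature miRNAs, and that of miR-196a in miR-196b. The seeds of miR-22, miR-22*, miR-203 and miR-455-3p occurred in no other mature miRNA of that table, which held 1679. The precursor genes lay within other genes in several cases: Mir455 in the collagen gene Col27a1, Mir140 in the ubiquitin ligase gene Wwp2, Mir328 in Elmo3, Mir32 in Tmem245 and Mir22 in its own host transcript Mir22hg. Mir203 lay between the coding genes Aspg and Kif26a, and the precursors of miR-196a lay in the Hoxb and Hoxc clusters. These positions come from the RefSeq gene table by name, not from the array.

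At the deposited signal scale, 7 of the 9 members were measurable: miR-455, miR-22, miR-22*, miR-203, miR-328, miR-140 and miR-140*. Measurable means that more than 0.5 of a probe's spots were well above background, by the scanner software's test, on every array of at least 1 group. None of the 7 passed the test for cold against room temperature (limma with Benjamini-Hochberg adjustment over 189 measurable miRNAs, threshold 0.05), and miR-203 alone had an unadjusted limma p under 0.05. Over all 189 miRNAs, 29 passed (15.3%), 16 of them higher (8.47%) and 13 lower (6.88%) in the cold, and 62 (32.8%) had an unadjusted p under 0.05. Those counts were not stable: with 1 mouse left out, 8 to 33 passed (8 without room temperature mouse 6, 11 without cold mouse 2, 13 without room temperature mouse 5, 14 without cold mouse 3). Without scaling 0 were higher and 13 lower, and with spike-in scaling 3 and 33. For 3 of the 7 members, miR-203, miR-140 and miR-140*, every cold mouse lay above every room temperature mouse. Such a separation, cold above, occurred in 38 of the 189 miRNAs (20.1%), and in 73 (38.6%) in either direction. That of miR-203 came from its dimmer probe (0.97), which the filter kept through the cold arrays alone. Its brighter probe changed by -0.14, with overlap. The separation and the unadjusted p of miR-203 are therefore no support for a rise. The median change of the 7 was 0.26 on the log2 scale, and that of all 189 was -0.022.

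These values carry a position effect of the arrays that bears on every member. Each array has 192 rows of spots, and each probe has spots scattered over them. In rows 1 to 16 the spots of the 329 measurable probes read lower in the cold by a median of -2.62 on the log2 scale, and in rows 177 to 192 they read higher by 2.66. Spike-in control RNAs, which are added in the laboratory and are not mouse miRNAs, ran the same way, from -1.66 in rows 1 to 32 to 3.36 in rows 161 to 192. In rows 1 to 32 each of the 3 cold mice lay below the spots' mean and each of the 3 room temperature mice above it, and in rows 161 to 192 each lay on the opposite side. On the slide, the cold arrays filled one row and the room temperature arrays the other, so slide position and group cannot be told apart. The members' changes are therefore given as tested and, beside them, after each array was divided by a smooth surface over its rows and columns. Changes of other miRNAs are as tested alone. For the listed and marker miRNAs it is stated which passed after the correction. That correction was chosen after the gradient was seen.

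**Figure D1:**
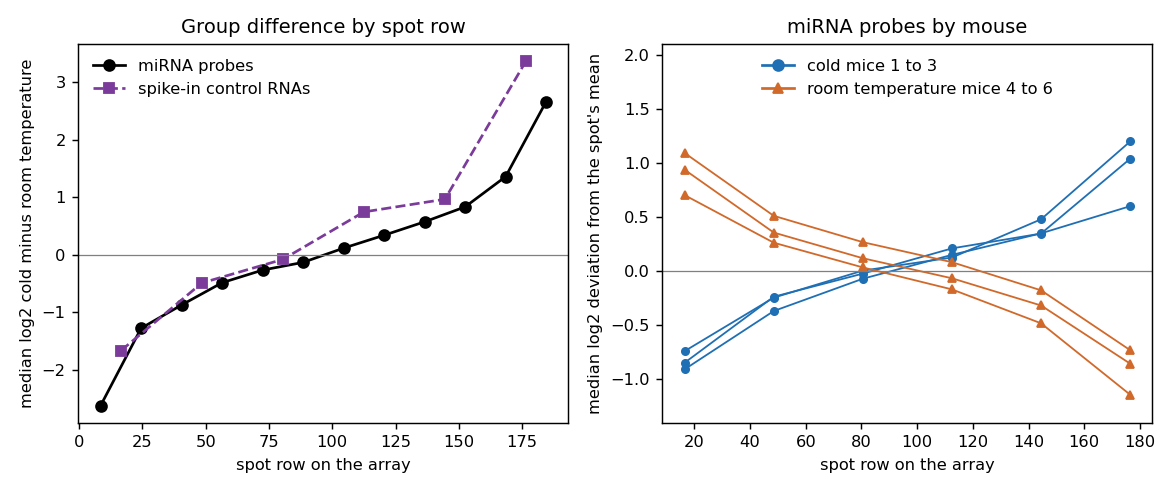
Left, median log2 difference between cold and room temperature over spots of measurable miRNA probes (12 bins of rows) and of spike-in control RNAs (6 bins), by spot row on the array. Right, median log2 deviation of each mouse from the spot's mean over both groups, by row. Both kinds of spot run from below 0 in the first rows to above 0 in the last, and the cold and room temperature mice cross near the middle rows.

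Across the 329 measurable probes, mean spot row and change correlated with Pearson r = 0.46 and Spearman rho = 0.55. After the correction r was -0.038, a value near 0 by construction, because the surface was fitted to spots of these same arrays. These are descriptions across probes, which share arrays and are not independent. With the correction, 22 of the 189 miRNAs passed (11.6%), 17 of them among the 29, and the groups did not overlap for 56 (29.6%). No member passed here either, and miR-328 was the one member whose groups did not overlap. The median change of the 7 members was then 0.064, against -0.11 over all 189. Every measurable member read lower in the cold over its spots in rows 1 to 96 and higher over its spots in rows 97 to 192, with the whole array's scaling kept.

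miR-455 is induced with brown adipocyte differentiation and has been reported to lower Runx1t1, Necdin and Hif1an, which hold back the brown programme. Its normalised level (log2, relative to each array's 75th percentile) was -2.58, -2.37 and -2.66 in cold mice 1 to 3. In room temperature mice 4 to 6 it was -3.01, -2.11 and -2.89. The cold mice lay within the range of the room temperature mice, of which mouse 5 was the highest and mice 4 and 6 the lowest of all 6. The change was 0.13 ± 0.24 (log2, SE; limma adjusted p = 0.741; 3 mice against 3), with a 95% interval of -0.43 to 0.69. Without room temperature mouse 4 it turned to -0.038, and with no scaling and with spike-in scaling it was -0.31 and -0.19. With the row gradient removed it was 0.032 (adjusted p = 0.933). Its probes changed by 0.34 (the brighter) and -0.073 (the dimmer) as tested, and by 0.19 and -0.13 with the gradient removed.

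The other arm of that hairpin, which the array calls miR-455*, was not measurable by the filter. On 1 cold and 3 room temperature arrays, though, most spots of at least 1 of its 2 probes were well above background. Its mean signal was 8.07 ± 2.22 units in the cold and 9.20 ± 2.26 at room temperature (SD, n = 3 mice each).

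miR-22 is abundant in heart, muscle, blood cells and fat, and its loss in mice has been reported to impair brown fat thermogenesis. Its normalised level was 1.98, 2.51 and 2.76 in the cold mice. It was 1.36, 2.28 and 1.88 in the room temperature mice. Mice 2 and 3 were the highest, but room temperature mouse 5 exceeded cold mouse 1, so the groups overlapped. The change was 0.57 ± 0.28 (log2, SE; limma adjusted p = 0.198), which is 1.49-fold, with an interval of -0.070 to 1.22. With the gradient removed it was 0.23 ± 0.23 (adjusted p = 0.580). The 2 arrays of cold mouse 1 differed by -0.99 for miR-22, more than the difference between the groups, where the median absolute difference between those arrays was 0.20 over all 189 miRNAs.

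That change came from 1 of its 2 probes. The bright probe read 8120, 9777 and 11672 units in the cold mice. It read 13815, 12928 and 14278 units in the room temperature mice, before scaling. After scaling it changed by -0.046, and the groups overlapped. The dim probe read 847, 2300 and 3302 units after cold exposure. At room temperature it read 464, 1355 and 1878 units. After scaling its change was 1.19, although the groups overlapped there too. Of the 10 printed spots of the bright probe 8 lay in rows 1 to 96, and of the 10 of the dim probe 8 lay in rows 97 to 192. Outlier marks removed more spots of the bright probe in the cold. Over the cold arrays 25 of its spots were used and over the room temperature arrays 35, with 5 to 10 per array. For the dim probe 37 and 38 were used. With outlier spots kept miR-22 changed by 0.48 (limma adjusted p = 0.115). With the gradient removed the probes changed by 0.092 and 0.36, which brought them closer together, in part by construction. The spots of the dim probe varied with a median coefficient of variation of 112% per array, against 40.6% for the bright probe. Over all its spots, miR-22 differed by -1.11 in rows 1 to 96 and by 2.23 in rows 97 to 192, with 10 spots in each.

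miR-22*, the 5p arm of the same hairpin, leaned the other way. Its normalised level was -4.28, -3.90 and -4.26 in the cold mice. It was -4.14, -3.73 and -3.90 in the room temperature mice. Mice 1 and 3 of the cold group were the lowest, but mouse 2 lay within the room temperature range. The change was -0.22 ± 0.17 (log2, SE; limma adjusted p = 0.391), with an interval of -0.61 to 0.17. It was -0.14 with the gradient removed (adjusted p = 0.688). Its probes changed by -0.40 and -0.044, and neither took the opposite sign with the gradient removed (-0.24 and -0.045).

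The log2 difference between the arms, miR-22* minus miR-22, asks whether cold shifted the balance of the hairpin's strands. Its size within a mouse has no meaning as a ratio of molecules, because different probes read the arms, but its change between groups can be compared. It was -6.26, -6.40 and -7.02 in the cold mice. It was -5.50, -6.01 and -5.78 in the room temperature mice. The groups did not overlap, and all 3 cold mice were lower. The change was -0.80 (exact permutation p = 0.1, 2-sided, the smallest p that 3 against 3 can give; adjusted over both pairs of arms, 0.2). With the row gradient removed it shrank to -0.37 (exact permutation p = 0.2), and cold mouse 2, at -5.98, came just above room temperature mouse 5, at -5.99. Scaling cancels in this difference, so alternatives that change only the scaling could not move it. Of the others, the brightest probe gave -0.35, the dimmest -1.24, normexp -0.46 and the software's total signal -0.21, each with an exact permutation p of 0.3.

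**Figure D2:**
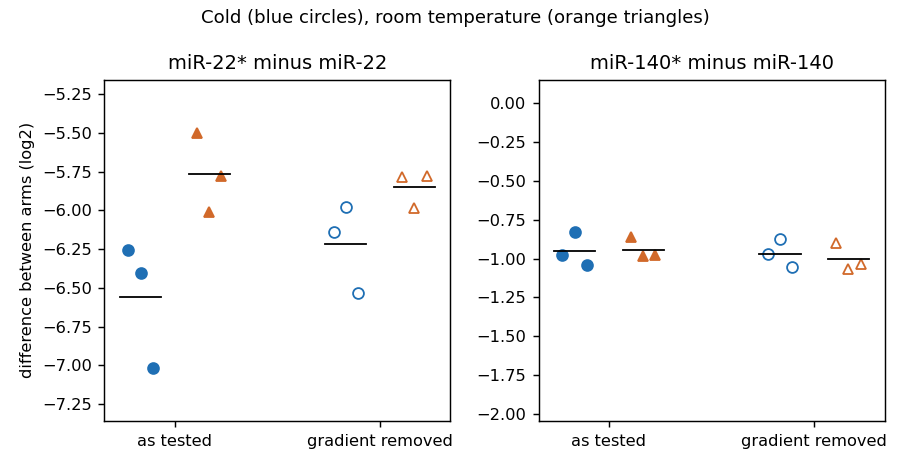
Log2 difference between the arms of miR-22 (left) and miR-140 (right) in each mouse, as tested (filled) and with the row gradient removed (open); circles are cold mice, triangles room temperature mice, lines are means of 3 mice, and both panels span the same log2 width. The cold mice lie below the room temperature mice for miR-22 as tested and meet them once the gradient is removed, whereas the groups overlap for miR-140 in both.

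miR-203 is best known from skin, where it holds p63 in check, and in brown fat it has been reported to dampen interferon-gamma signalling. Its normalised level was -3.03, -2.97 and -2.50 in the cold mice. It was -3.17, -3.36 and -3.23 in the room temperature mice. All 3 cold mice lay above all 3 room temperature mice, with mouse 3 the highest. The change was 0.42 ± 0.17 (log2, SE; 1.34-fold), and it did not pass after adjustment (limma adjusted p = 0.140). Without any scaling it was -0.023. With the row gradient removed the change was 0.35 ± 0.18 (adjusted p = 0.275), and cold mouse 1, at -3.18, fell just under room temperature mouse 4, at -3.17. The 2 arrays of cold mouse 1 differed by -0.79, and with only the first array of mice 1 and 4 the change was 0.61 (adjusted p = 0.0448).

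The probes of miR-203 disagreed. The bright probe read 128, 200 and 208 units after cold exposure, before scaling. At room temperature it read 267, 269 and 249 units. It changed by -0.14 after scaling. The dim probe read 49.0, 56.8 and 126 units after cold exposure, and 47.7, 26.4 and 90.0 units without it. After scaling it changed by 0.97 and its groups did not overlap. With the gradient removed these changes were 0.044 and 0.66, so the gap narrowed, in part by construction, but did not close. The dim probe was well above background in 25 of 38 spots on the cold arrays and in 23 of 39 on the room temperature arrays. It passed the filter through the cold arrays alone, with most spots well above background on 4 cold and 3 room temperature arrays. With the stricter filter that asks for all 8 arrays only the bright probe was left, and the change was -0.14. Skin and other epithelia hold much miR-203, so their markers were read beside it. None of the 6 epithelial markers (miR-200a, miR-200b, miR-200c, miR-141, miR-429 and miR-205) was measurable, and their summed signal ranged from -3.55 to -1.45 units in the cold mice and from -2.78 to 1.1 units at room temperature.

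miR-328 has been reported to favour brown over muscle differentiation, with the protease gene Bace1 as a target. It rested on 1 measurable probe. Its normalised level was -3.98, -3.80 and -3.67 in the cold mice. It was -3.82, -3.75 and -3.81 in the room temperature mice, a range that lay within that of the cold mice. The change was -0.022 ± 0.13 (log2, SE; limma adjusted p = 0.908), with an interval of -0.32 to 0.28. With the row gradient removed the value moved to -0.47 ± 0.17, and the groups no longer overlapped. The corrected levels were then -4.28, -4.00 and -3.75 in the cold mice. In the room temperature mice they were -3.50, -3.49 and -3.63. This did not pass either (limma adjusted p = 0.126). With the gradient removed and outlier spots kept, miR-328 changed by -0.22 (limma adjusted p = 0.511). Outlier marks had left 40 spots of its probe in use over the cold arrays and 36 over the room temperature arrays. The size of the corrected change thus depended on which spots were dropped. Of the probe's 10 spots, 3 lay in rows 1 to 96, where it differed by -1.19, and 7 in rows 97 to 192, where it differed by 0.36. Its second probe read 4.03, 4.05 and 6.47 units after cold exposure. At room temperature it read 2.68, 2.45 and 4.47 units, and all 6 values lay under the lowest signal well above background on any array (7.14 units).

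**Figure D3:**
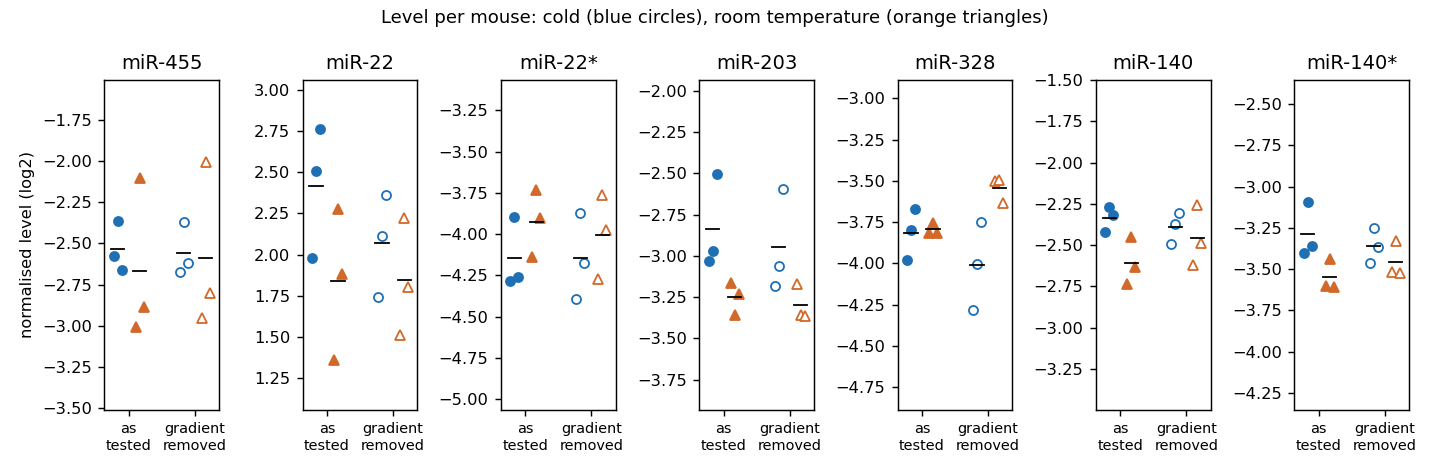
Normalised log2 level of each measurable member in each mouse, as tested (filled) and with the row gradient removed (open); circles are cold mice, triangles room temperature mice, lines are means of 3 mice, and every panel spans 2 log2 units so that spreads can be compared. As tested the groups separate for miR-203, miR-140 and miR-140*, and with the gradient removed for miR-328 alone.

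miR-140 is a cartilage miRNA, made from a Wwp2 intron under Sox9, and it is also expressed in adipose cells. Its normalised level was -2.42, -2.27 and -2.32 in the cold mice. It was -2.74, -2.45 and -2.63 in the room temperature mice, all 3 of them lower. The change was 0.27 ± 0.13 (log2, SE; limma adjusted p = 0.198), and it was -0.17 with no scaling and -0.047 with spike-in scaling. With the gradient removed it was 0.064 (adjusted p = 0.800) and the groups overlapped. The brighter probe gave 0.57 and the dimmer -0.030 as tested. These became 0.13 and -0.0036 with the gradient removed. The brighter one had 7 of its 10 spots in rows 97 to 192, and the dimmer one 8 of 10 in rows 1 to 96. The call differed between settings: with the brightest probe alone the change of 0.57 passed (limma adjusted p = 0.0221), and with quantile normalisation 0.43 passed (adjusted p = 0.0267).

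miR-140* is the 3p arm. Its normalised level was -3.40, -3.10 and -3.36 in the cold mice. It was -3.60, -3.44 and -3.61 in the room temperature mice, again without overlap. The change was 0.26 ± 0.14 (log2, SE; limma adjusted p = 0.228), with -0.18 under no scaling and -0.053 under spike-in scaling. It was 0.097 (adjusted p = 0.688), with overlap, once the gradient was removed. Its brighter probe changed by 0.13 and its dimmer by 0.40, and with the gradient removed by 0.23 and -0.037. The difference between the arms, miR-140* minus miR-140, was -0.98, -0.83 and -1.04 in the cold mice. It was -0.86, -0.99 and -0.98 in the room temperature mice. Those groups overlapped fully, and the change was -0.0064 (exact permutation p = 0.9, 2-sided; adjusted 0.9). Averaged over probes, the balance of these arms thus differed between the groups by less than the spread between mice (SD 0.11 in the cold and 0.068 at room temperature). That average joins probes that disagreed. The brightest probe of each arm gave -0.44 and the dimmest 0.43, each with an exact permutation p of 0.1, the smallest possible. An unchanged balance therefore cannot be read from it.

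Of the 6 members with more than 1 measurable probe, 4 (miR-455, miR-22, miR-203 and miR-140) had probes with changes of opposite sign, against 53 of 125 such miRNAs on the array (42.4%). Over those 125 miRNAs the correction, whose surface was fitted to spots of these same arrays, lowered the number to 34 (27.2%). The median gap between probes fell from 0.38 to 0.20 on the log2 scale, in part by construction. Among the members, the probes of miR-455, miR-140 and miR-140* then had opposite signs, those of miR-140* newly so.

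**Figure D4:**
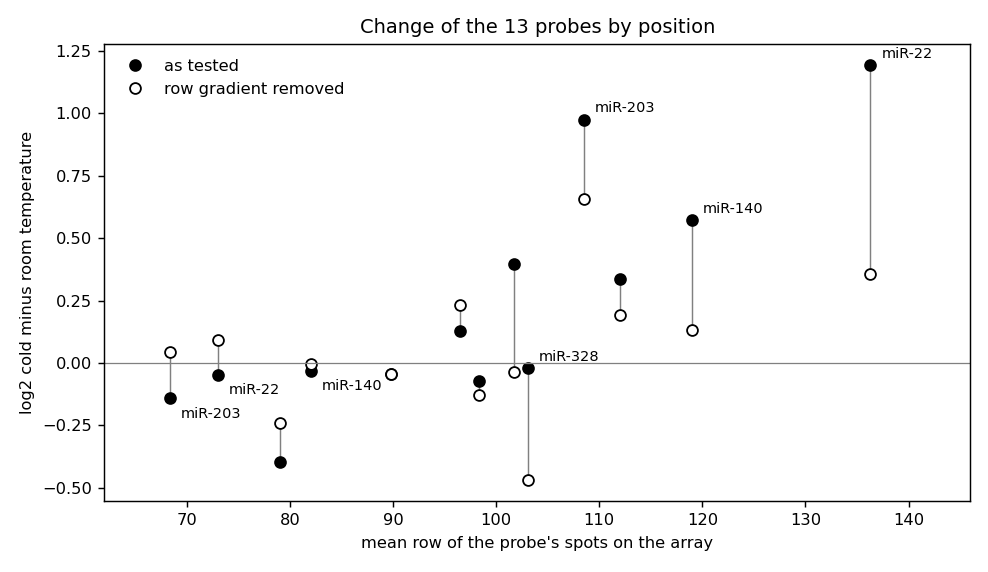
Change (log2 cold minus room temperature) of each of the 13 measurable probes of the members against the mean row of its spots, as tested (filled) and with the row gradient removed (open, joined by a line); the probes of miR-22, miR-203, miR-140 and miR-328 are named. The probes of miR-22 at mean rows 73.0 and 136 changed by -0.046 and 1.19 as tested, and by 0.092 and 0.36 after removal.

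miR-32 has been reported to rise in brown fat in the cold and to raise the hormone FGF21 by lowering Tob1. It was not measurable by the filter. Its mean signal over 4 probes was 5.11, 6.22 and 13.6 units in the cold mice. It was 8.54, 3.93 and 18.02 units in the room temperature mice. Each group held low and high mice, and the ranges overlapped. The means were 8.31 ± 4.61 and 10.2 ± 7.18 units (SD, n = 3), a difference of -1.86 units (exact permutation p = 0.7, 2-sided). These levels lie around the lowest signal well above background, which was between 7.14 and 12.9 units over the arrays, so a fall of miR-32 would have had little room to show. Most spots of one probe were well above background on 1 cold and 3 room temperature arrays, and those of another on 0 and 3, so a faint signal was present in some mice.

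Of the miRNAs with the seed of miR-32, miR-25 and miR-92a were measurable, and miR-92b, miR-363 and miR-367 were not. miR-25 (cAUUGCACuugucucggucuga) changed by -0.047 ± 0.12 (log2, SE; limma adjusted p = 0.819). miR-92a (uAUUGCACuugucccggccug) had a change of 0.53 ± 0.15 that just missed the threshold (limma adjusted p = 0.055). Its mature sequence occurs at 2 loci, which the array cannot tell apart. Both changes are as tested, without the row correction.

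miR-196a lies in Hox clusters and has been reported to drive brown-like cells in white fat by lowering Hoxc8. None of its spots was well above background on any array, in either group. Its mean signal over 4 probes was 1.01, 0.798 and 2.16 units in the cold mice. It was 1.64, 1.33 and 1.31 units in the room temperature mice. The means were 1.32 ± 0.734 and 1.43 ± 0.187 units (SD, n = 3), which differed by -0.10 units (exact permutation p = 0.9, 2-sided). Probes for 10 viral miRNAs, which mouse tissue does not make, averaged 0.271 to 2.11 units per mouse, and each miR-196a value but that of mouse 3 lay inside that range. Its seed partner miR-196b (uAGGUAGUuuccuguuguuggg) was not measurable either, at 1.83 ± 0.267 units in the cold and 1.25 ± 0.287 at room temperature.

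**Figure D5:**
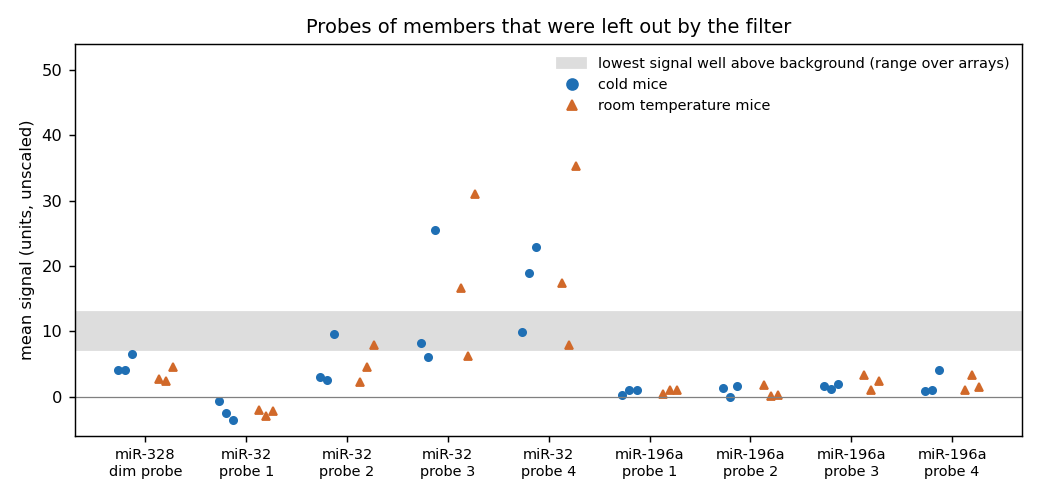
Mean signal in scanner units, without scaling, of each probe left out by the filter: 1 of miR-328, 4 of miR-32 and 4 of miR-196a; circles are cold mice, triangles room temperature mice, and the grey band spans the lowest signal well above background over the 8 arrays (7.14 to 12.9 units). Probes of miR-196a lie under the band in every mouse, and probes 3 and 4 of miR-32 reach above it in some mice of both groups.

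Other miRNAs reported to act in brown fat were read from 2 lists, beside shares over all 189 miRNAs of 8.47% higher and 6.88% lower as tested, and of 11.6% in either direction with the gradient removed. Of 11 that promote it, 10 were measurable, and miR-193b (0.64 ± 0.12, limma adjusted p = 0.013) and miR-378 (0.97 ± 0.21, adjusted p = 0.022) rose in the cold, both known from brown adipocyte commitment. None of the 10 passed lower, and the median of the 10 was 0.026. With the gradient removed none of the 10 passed. Of 13 that restrain it, all measurable, miR-93 rose (0.62 ± 0.14; adjusted p = 0.022), and miR-133a, miR-133b, miR-199a-3p and miR-214 fell. The median of the 13 was -0.17. With the gradient removed miR-93 did not pass and the 4 that fell did.

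miR-133a and miR-133b, which repress Prdm16, are also markers of striated muscle. Their changes were -1.88 ± 0.44 and -1.97 ± 0.46 (limma adjusted p = 0.023 for both). Of 5 muscle markers 4 were measurable, and miR-133a, miR-133b and miR-206 passed lower. The other measurable one, miR-1, changed by -1.73 (limma adjusted p = 0.055), with all 3 cold mice below all 3 room temperature mice. With the gradient removed all 4 passed lower. The summed unscaled signal of the 5 was 1948 to 6661 units in the cold mice and 10502 to 24302 at room temperature. None of the 3 erythroid, 5 leukocyte or 3 liver markers passed, and miR-451 and miR-144 of red cells, in which miR-22 is also abundant, gave 0.64 (adjusted p = 0.058) and 0.83 (adjusted p = 0.053). For both, all 3 cold mice lay above all 3 room temperature mice, where 38.6% of the 189 miRNAs separated in either direction. The other erythroid marker, miR-486, gave 0.46 (adjusted p = 0.308), with overlap. In the liver list miR-122 changed by -2.71 (adjusted p = 0.115), without overlap, with every cold mouse at the floor. miR-192 (0.052) and miR-194 (0.12) overlapped. Among leukocyte markers miR-342-3p (-0.43, adjusted p = 0.093) lay lower in every cold mouse, and the others overlapped. With the gradient removed no erythroid, leukocyte or liver marker passed either. The summed unscaled erythroid signal was 11159 to 23968 units in the cold and 11000 to 22202 units at room temperature. Leukocyte sums were 456 to 991 and 1142 to 1755 units, and liver sums 69.3 to 104 and 108 to 291 units. Array percentiles, by which these sums were not divided, were 627 to 918 units in the cold and 863 to 1408 at room temperature. Of 5 markers of stroma and smooth muscle 4 were measurable, and miR-199a-3p and miR-214 passed lower, both as tested and with the gradient removed. The other measurable ones did not pass: miR-143 at -0.52 (adjusted p = 0.423) and miR-199a-5p at 0.68 (adjusted p = 0.169), where all 3 cold mice lay above all 3 room temperature mice. The brown adipocyte markers miR-193b, miR-365 and miR-378 were all measurable, and miR-365 changed by -0.074 (adjusted p = 0.840), in contrast to the other two. The part of other cell types in the members' values was not tested.

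The miRNAs whose pattern over the 6 mice was most like a member's were taken by the smallest SD of the log2 ratio. For miR-203 these were miR-671-5p (SD 0.028) and miR-362-3p (0.14), and for miR-140 they were miR-301a (0.052) and miR-320 (0.072). miR-140* was nearest to miR-15b (0.072) and then to its own other arm, miR-140 (0.082). miR-328 was nearest to miR-20a (0.059) and miR-25 (0.079), and miR-22* to miR-23b (0.089) and miR-223 (0.096). miR-455 (miR-218, 0.17; miR-379, 0.18) and miR-22 (miR-136, 0.20; miR-193, 0.24) had less close neighbours than the median nearest SD over all 189 miRNAs (0.095). These likenesses describe 6 mice, and the values carry the row gradient.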

How the data were processed

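Each of the 8 deposited files holds one array's spot intensity, which the authors' scanner software background-subtracted on a linear scale. Per the file headers that was Agilent Feature Extraction 10.7.3.1, and the submitters' processing notes name 9.5.3.1. The authors' deposited value table held the same numbers (largest difference 0, column medians from 1.12 to 1.55 units), unscaled and not log-transformed. All arrays lay on 1 slide with 1 scan. Control spots and those the software marked as outliers (2.09% to 2.63%) were dropped, spots of a probe were averaged, and each array was scaled to its 75th percentile over the 267 probes well above background on all arrays (627 to 918 units per mouse in the cold, 863 to 1408 at room temperature). A floor of 0.01 and log2 followed, and a miRNA was the mean of its kept probes (13 of the members' 22). limma 3.58.1 in R 4.3.3 fitted all 189 miRNAs at once. It was tested on simulated data. Differences between arms and the members left out by the filter were compared with 2-sided exact permutation tests over mice. The number of mice, 3 per group, limits the precision, and mice 1 and 4 rest on 2 arrays each. limma p-values use a spread between mice that is partly pooled over the 189 miRNAs. No p-value here separates cold from slide position.

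Members, lists and tests were chosen with earlier results of these data known. The named miRNAs are the members, list members past the threshold, and for each measurable member the 2 miRNAs of most similar pattern. Marker miRNAs are named only beside a result, and the seed partners of miR-32 and miR-196a and the other arm of miR-455 were added after values were seen. The files hold median, not mean, spot signals, so the median replaced the mean in the normexp alternative (offset 50) and in the local background alternative. The row surface (loess, span 0.3), the row ranges and the dimmest probe were alternatives chosen after the data were seen. Array names predate current arm names, and no coordinates are given because the files name no genome build.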

Additional observations from a re-analysis of the deposited data

How the results depend on the processing

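No paired analysis was possible because the groups share no mouse numbers. Over 24 alternatives per member (those by array position and by dimmest probe were chosen after seeing the data), 3 of the 7 measurable members, none of which passed as tested, passed under at least 1. miR-140 passed with quantile normalisation, the brightest probe and rows 1 to 96 alone (0.70, limma adjusted p = 0.0116), miR-203 with the first array of each mouse and rows 97 to 192 alone (0.97, adjusted p = 0.0254), and miR-328 with rows 1 to 96 alone (-2.25, adjusted p = 0.00109, from 3 spots). Row ranges were scaled on their own. Over all miRNAs, 61 of 188 passed in rows 1 to 96 and 20 of 187 in rows 97 to 192. Of 189, 43 passed with quantile normalisation, 37 with the brightest probe and 31 with the first array of each mouse. How many of all miRNAs passed under at least 1 alternative was not counted, so the 3 of 7 is not a trait of the members. Where no cause is named below, the cause was not tested.

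The count of 29 miRNAs past the threshold became 13 with no scaling (0 higher, 13 lower), 6 with normexp, 5 with no filter over 566 miRNAs, 16 with the filter on all arrays, 46 with the dimmest probe and 61 with rows 1 to 96 alone. It was 36 with spike-in scaling (3 higher, 33 lower) and 28 with the percentile over all probes (11 higher, 17 lower). It was 8 to 33 with a mouse left out: 11 without cold mouse 2, 14 without cold mouse 3, 13 without room temperature mouse 5 and 8 without mouse 6. The median change of all miRNAs moved from -0.022 to -0.46 with no scaling, -0.34 with spike-ins and 0.21 with normexp, so members' directions are relative to the scaling.

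Signs turned with no scaling for miR-455 (-0.31), miR-203 (-0.023), miR-140 (-0.17) and miR-140* (-0.18). They turned with spike-ins for miR-455 (-0.19), miR-140 (-0.047) and miR-140* (-0.053), and with normexp for miR-22* (0.074) and miR-328 (0.18). The brightest probe turned miR-22 (-0.046) and miR-203 (-0.14), the dimmest miR-455 (-0.073) and miR-140 (-0.030), the software's total signal miR-22 (-0.10), and the filter on all arrays miR-203 (-0.14). Keeping outlier spots turned miR-328 (0.20). miR-140* turned within rows 1 to 96 (-0.029) and within rows 97 to 192 (-0.067). Leaving out a mouse gave -0.038 to 0.41 for miR-455 and -0.094 to 0.059 for miR-328. It gave 0.33 (without room temperature mouse 4) to 0.79 for miR-22, -0.35 (cold mouse 2) to -0.13 (room temperature mouse 5) for miR-22*, 0.25 (cold mouse 3) to 0.52 for miR-203, 0.21 to 0.35 for miR-140 and 0.17 (cold mouse 2) to 0.32 for miR-140*, and none passed.

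Scaling, filter, floor and value table left the arm difference of miR-22 as it was or nearly so. Its exact permutation p of 0.1, the smallest possible, rose to 0.3 with either single probe, the software's total signal or normexp, and to 0.9 in rows 1 to 96 (-0.32). The arm difference of miR-140 was -0.44 with the brightest probe and -0.73 in rows 1 to 96 (exact permutation p = 0.1 for both). It was -0.25 in rows 97 to 192 (exact permutation p = 0.3). It turned to 0.079 with outlier spots kept, 0.43 with the dimmest probe, 0.034 with the gradient removed and 0.099 with both the gradient removed and outlier spots kept, and ranged from -0.068 to 0.039 with a mouse left out. With the median signal minus local background miR-32 gave 0.13 and miR-196a 2.05 units, and divided by the array's percentile 0.0015 and 0.00023. Leaving out a mouse gave -4.97 to 2.07 units for miR-32 and -0.52 to 0.16 for miR-196a.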

Other observations

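Other mature strands of the members' hairpins were near the background as well. The array entry miR-203* averaged 4.36 ± 1.22 units in the cold and 3.87 ± 1.36 at room temperature (SD, n = 3 mice each), and miR-196a* averaged -1.54 ± 0.458 and -1.65 ± 0.311 units. Neither was measurable by the filter, although on 1 cold and 1 room temperature array most spots of a miR-203* probe were well above background.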
